A study of Mus musculus with 4 samples.

Results

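Insertions of 3 bp or more at the junctions of homology-independent targeted integration (HITI) were characterized in liver and retina of C57BL/6J mice. The members were all listed insertions of at least 3 bp, each defined by its position and its length, with no minimum frequency. From the list of the retinal 5′ junction, 2 entries of 40 bp at the cleavage site and 48 bp 1 nt before it were left out, which together held 82334 reads, so that the values describe the rarer insertions. This gave 360 members out of 559 listed insertions (64.4%), and apart from the 2 left out the remaining 197 insertions were 1 or 2 bp long. The members fell into 62 of 96 entries at the liver 5′ junction, 249 of 304 at the liver 3′ junction, 36 of 99 at the retinal 5′ junction and 13 of 60 at the retinal 3′ junction.

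In the liver, pups received the vectors through the temporal vein at 1 to 2 days of age, at a dose of 4e13 genome copies per kg of each vector, with SpCas9 driven by the hybrid liver promoter, and the m*Alb* gene was targeted. In the retina, 4-week-old mice received 2.5e9 genome copies of each vector per eye under the retina, with SpCas9 driven by the photoreceptor promoter IRBP. All tissues received AAV8 vectors and were collected 30 days after injection. DNA of 1 liver and of 1 retina was used to amplify both junctions, so there was 1 library per junction and tissue, without replicates and without a control library, and the libraries of a tissue are different junctions of the same organ. No test between libraries was possible, and each value describes its own library.

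In HITI, *Streptococcus pyogenes* Cas9 (SpCas9) cuts both a genomic site and a donor DNA flanked by the same target sites in inverted orientation, and non-homologous end joining (NHEJ) ligates the donor into the genome without homology arms. Precise ligation leaves a junction that the nuclease can no longer recognize, whereas ligation in the wrong orientation rebuilds the target site. NHEJ can remove or add nucleotides before ligation. Added nucleotides come from polymerases that extend the ends, with or without a template, or from fragments of DNA caught in the break, and an insertion changes the reading frame unless its length is a multiple of 3. The lists give the length of an insertion but not its bases, so the origin of the insertions was not tested.

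The target site in m*Alb* is shown first because all distances in the liver are counted from its cleavage site. It lies on the forward strand at chr5:90609580-90609602 of GRCm39, in the coding sequence of exon 2 of *Alb*, the gene of serum albumin, and SpCas9 cuts between nucleotides 90609596 and 90609597. In the target, capitals mark the protospacer adjacent motif (PAM). In the junctions that precise ligation would give, capitals mark the inverted copy of the target site carried by the donor.
m*Alb* target site and PAM: acaagagtgagatcgcccatCGG
liver 5′ junction: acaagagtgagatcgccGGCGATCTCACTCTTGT
liver 3′ junction: CCGATGcatcggtataatgattt
The most frequent bases of both liver libraries equalled these junctions at every nucleotide shown. At the 5′ junction the genomic end is thus followed by its own inverted repeat of 17 nt on each side, whereas the repeat around the 3′ cleavage site spans 7 nt on each side. In the retina, the same layout gave repeats of 18 nt at the 5′ junction and 6 nt at the 3′ junction. The centre of the repeat was taken as the cleavage site, and the position of an insertion as the nucleotide before it, so that a distance of 0 is directly at the site.

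The depth, counted on the nucleotide just before the cleavage site, was 119189 reads at the liver 5′ junction and 426390 at the liver 3′ junction, and 3079384 and 1406606 reads at the retinal 5′ and 3′ junctions. Shares are given with 95% Wilson intervals. PCR reads without molecular identifiers are not independent molecules, so the intervals and the floor of 3 reads cover counting error only. A read with several insertions counts at each, so a sum over entries can exceed the number of different reads. At the liver 3′ junction, entries 3 nt before, 14 nt before and 14 nt after the site had 177 reads each. Whether entries with equal reads came from the same reads was not tested. Insertions of 3 bp or more were found in 1254 reads of the liver 5′ junction, which was 1.05% of the depth (0.996% to 1.11%). The liver 3′ junction had 9065 such reads, or 2.13% (2.08% to 2.17%), which was 2.02 times the share of the 5′ junction. The ratio was 1.47 within 5 nt of the site, and the order turned with a minimum of 0.1% of the depth per entry, which left 0.329% at the 5′ and 0.164% at the 3′ junction. The retinal 5′ junction had 325 reads, or 0.0106% (0.00947% to 0.0118%), and the retinal 3′ junction 28 reads, or 0.00199% (0.00138% to 0.00288%). The intervals of the 4 libraries did not overlap, and the share in the liver was 99.7 times that in the retina at the 5′ junction and 1068 times at the 3′ junction. The direction at the 5′ junction rests on leaving out the 2 retinal entries, since with them the retinal share was 2.68% and above that of the liver. Without the members that lie beside these entries the ratio was 476. Of the 68 retinal reads left in that case, 54 lay 21 to 23 nt after the site, where the liver list has no positions. The ratio of 476 therefore compares unequal windows. At the 3′ junction the ratio rests on 28 retinal reads. With a minimum of 3 reads per entry, the shares there were 2.10% in the liver and 0.00128% in the retina. Tissue, targeted gene, age, dose and library were different at the same time and cannot be told apart as the source of these gaps. The floor of 3 reads was 0.00252% and 0.000704% of the depth in the liver libraries, and 9.74e-05% and 0.000213% in the retinal libraries.

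Reads with an insertion of 1 or 2 bp outnumbered the reads of the members in every library, although at the retinal 5′ junction the order turned with the 2 left-out entries counted (60484 against 82659 reads). They made up 4.49% of the depth at the liver 5′ junction and 18.3% at the liver 3′ junction. In the retina they made up 1.96% at the 5′ junction but 68.9% at the 3′ junction, where 959735 reads had an insertion directly at the cleavage site and only 3 of them belonged to a member. Members therefore held 19% of all listed insertion reads at the liver 5′ junction, 10.4% at the liver 3′ junction, 0.227% at the retinal 5′ junction with the left-out reads in the total, and 0.00289% at the retinal 3′ junction. Across the lower length limit, reads fell from 1293 with 2 bp to 437 with 3 bp at the liver 5′ junction and from 8919 to 1664 at the liver 3′ junction. The retinal 3′ junction had 78645 reads with 2 bp and 12 with 3 bp, while the retinal 5′ junction had fewer reads with 2 bp (11) than with 3 bp (58). This order depends on its wider list, since within the 17 nt on each side that the other lists cover it had 10 reads with 2 bp and 3 with 3 bp.

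No member reached the minimum frequency that the study's methods set for counting an INDEL, which was 0.5% in the liver and 0.1% in the retina. At the retinal 5′ junction this holds only because the 2 left-out entries are not members. They made up 1.52% and 1.15% of the depth and were thus above the minimum. The most frequent member of each library made up 0.177%, 0.164%, 0.00438% and 0.000569% of the depth, in the order liver 5′, liver 3′, retinal 5′ and retinal 3′ junction. In the liver, 2 members of the 5′ junction and 1 of the 3′ junction were above 0.1%, and 19 and 69 members were above 0.01%. A single read supported 20 of 62 members (32.3%) at the liver 5′ junction, 88 of 249 (35.3%) at the liver 3′ junction, 18 of 36 (50%) at the retinal 5′ junction and 10 of 13 (76.9%) at the retinal 3′ junction. The number of entries a library holds also depends on its depth, which was 3.58 times higher at the liver 3′ than at the liver 5′ junction.

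**Figure D1:**
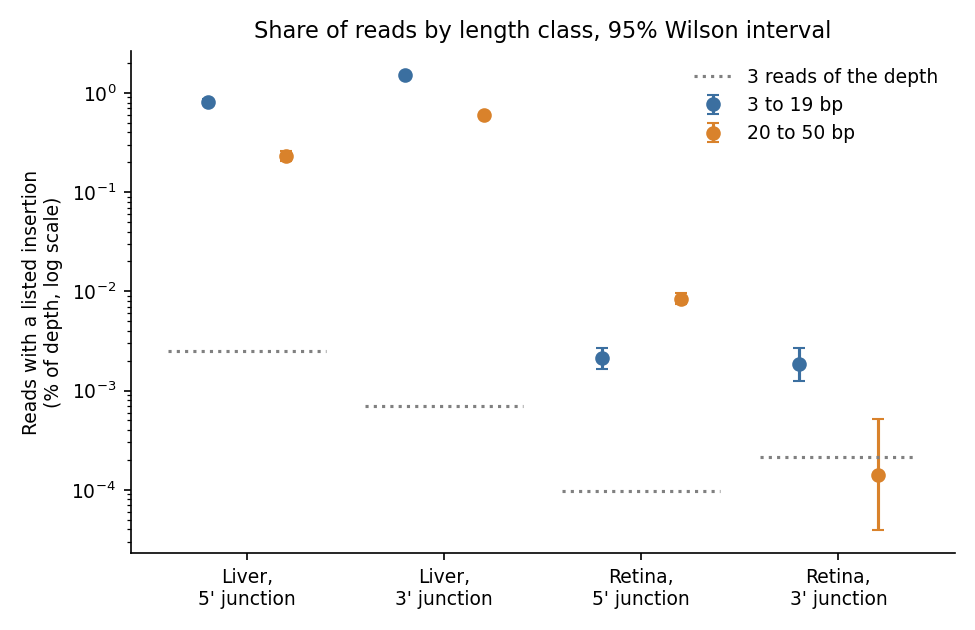
Reads with a listed insertion of 3 to 19 bp (blue) or 20 to 50 bp (orange), as a percentage of the depth at the cleavage site on a log scale, in the 4 libraries. Bars are 95% Wilson intervals and dotted lines the share of 3 reads; the retinal 5′ junction is the library where the longer class lies above the shorter one, and the longer class of the retinal 3′ junction (2 reads) lies below the 3-read line.

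The reads were spread over more entries at the liver 3′ junction than in the other libraries. The number of entries and reads limits this comparison, most of all at the retinal 3′ junction with 13 entries and 28 reads, where 5 entries are a large part of the list. Reads with several insertions count at each entry, which can also widen the spread. At the liver 3′ junction, entries 7 nt before, 8 nt before and 13 nt after the site had 121 reads each. Whether these were the same reads was not tested. The first 5 entries held 52.3% of the member reads at the liver 5′ junction, 77.8% at the retinal 5′ junction and 71.4% at the retinal 3′ junction, but 18.2% at the liver 3′ junction. At least 50% of the reads were reached with 5 entries at the liver 5′ junction and with 25 at the liver 3′ junction, and 90% with 18 and 80 entries. In both retinal libraries 2 entries were enough for 50%. The values of the retinal 5′ junction rest on members beside the left-out entries, which held 257 of its 325 reads. Without them the entry of 3 bp 22 nt after the site held 47 of the 68 remaining reads. With the left-out entries counted, the one of 40 bp held 46813 of 82659 reads. A single entry passed 50% in either case.

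**Figure D2:**
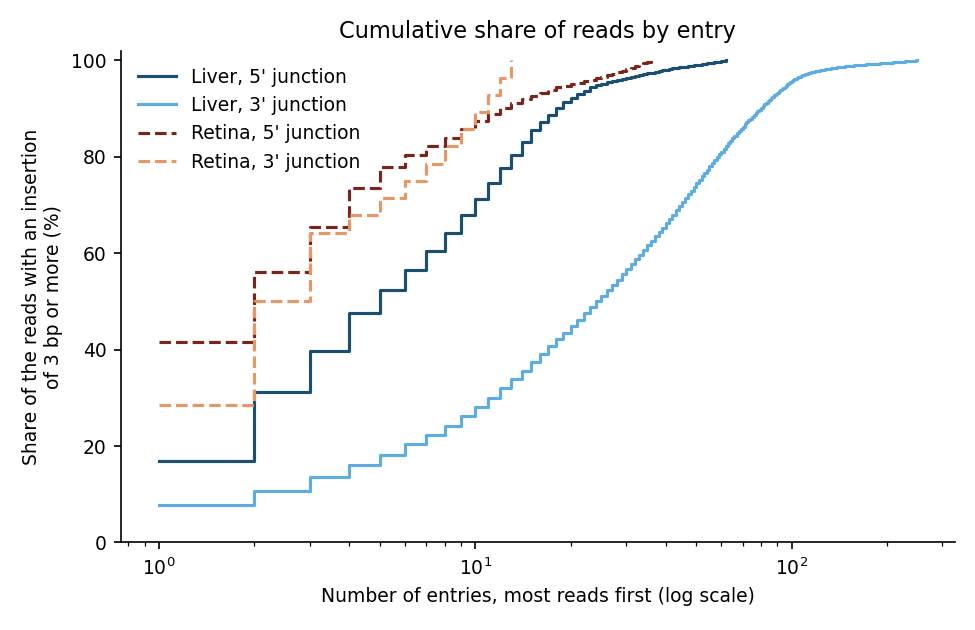
Cumulative share of the reads with an insertion of 3 bp or more (vertical axis, %) against the number of entries, from the entry with the most reads on (horizontal axis, log scale). At the liver 3′ junction 25 entries were needed for 50% of the reads, against 5 at the liver 5′ junction and 2 in each retinal library. Members beside the left-out entries held 257 of the 325 reads at the retinal 5′ junction.

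The lengths ranged from 3 to 50 bp, and no list held a longer insertion. Whether longer insertions were lost when the reads were trimmed and aligned was not tested. Weighted by reads, the median length was 9 bp at the liver 5′ junction (quartiles 3 and 17 bp), 10 bp at the liver 3′ junction (4 and 21 bp), 40 bp at the retinal 5′ junction (39 and 46 bp) and 4 bp at the retinal 3′ junction (3 and 7 bp). The median of the retinal 5′ junction rests on members beside the left-out entries, and without them it was 3 bp, with 58 of 68 reads at that length. The latter median rests on the wider list of this library. Only 3 of these 58 reads lay within the 17 nt on each side that the other lists cover. With each entry counted once, the medians were 17, 12, 36.5 and 4 bp. Of the 48 lengths from 3 to 50 bp, 35 occurred at the liver 5′ junction, 45 at the liver 3′ junction, 20 at the retinal 5′ junction and 7 at the retinal 3′ junction.

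In the liver, the length of 3 bp had the most reads at both junctions, with 437 of 1254 reads (34.8%) at the 5′ junction and 1664 of 9065 (18.4%) at the 3′ junction. At the liver 5′ junction reads then fell to 159 at 4 bp, 22 at 5 bp and 2 at 6 bp. Lengths of 9 bp (55 reads), 10 bp (48 reads) and 17 bp (246 reads) stood out above their neighbours, and 5 of the 17 lengths from 3 to 19 bp had no read. The peak at 17 bp held 19.6% of the member reads in 6 entries. At the liver 3′ junction all 17 lengths were found, and after 3 bp the most frequent were 4 bp (665 reads, 7.34%), 8 bp (607 reads, 6.70%) and 6 bp (569 reads, 6.28%). Reads rose and fell between neighbouring lengths, with 300 at 7 bp, 248 at 9 bp, 217 at 13 bp, 365 at 14 bp and 214 at 15 bp. Lengths of 4 to 5 bp held 12.3% of its reads, 6 to 9 bp 19%, 10 to 14 bp 12.3% and 15 to 19 bp 10.1%, and the length of 17 bp held 185 reads (2.04%). The length with the fewest reads in the shorter class was 12 bp, with 6 reads. Above 20 bp the liver 3′ junction had its most frequent lengths at 23 bp (392 reads), 21 bp (366 reads) and 28 bp (335 reads), and the liver 5′ junction at 26 bp (53 reads), 28 bp (45 reads) and 30 bp (35 reads). Both liver libraries became sparse toward the upper end, with 15 reads of 40 to 50 bp at the 5′ junction (1.20%), compared with 48 at the 3′ junction (0.530%).

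In the retina, the shapes were different. The 5′ junction had 58 reads of 3 bp, 7 reads from 4 to 14 bp, none from 15 to 29 bp, 3 from 30 to 34 bp, and then 24 reads of 35 to 39 bp and 233 reads of 40 to 50 bp (71.7%). Lengths of 40 bp (145 reads) and 48 bp (59 reads), the lengths of the 2 entries left out, held most of these. The 28 reads of the 3′ junction were 12 of 3 bp, 6 of 4 bp, 6 of 7 bp and 1 each of 6, 8, 24 and 27 bp.

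**Figure D3:**
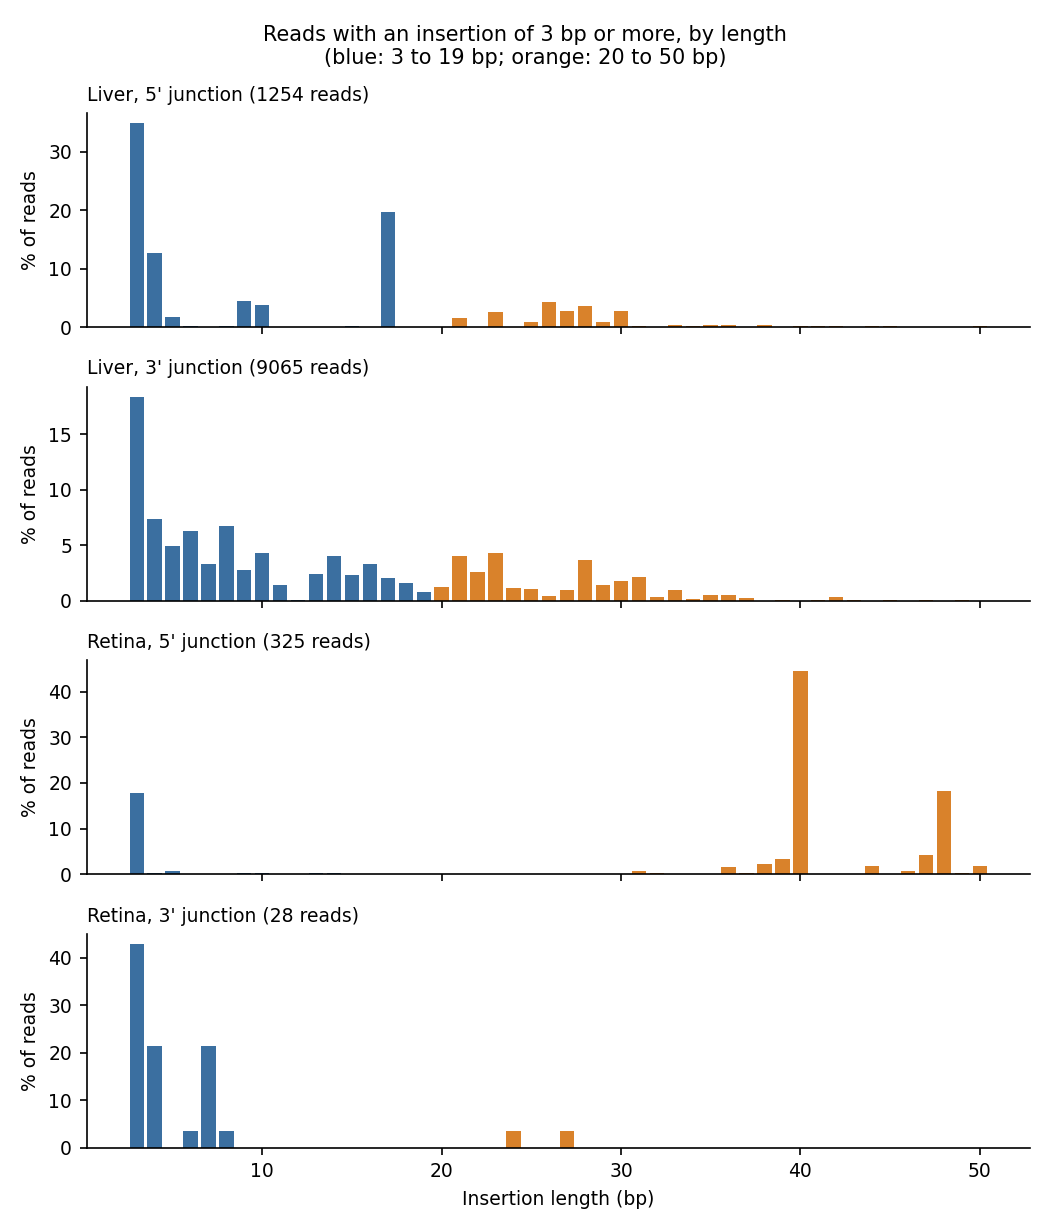
Share of the reads with an insertion of 3 bp or more (vertical axis, %) by insertion length (horizontal axis, bp) in each library, with 3 to 19 bp in blue and 20 to 50 bp in orange. The liver 5′ junction peaks at 3 bp and 17 bp. The liver 3′ junction is highest at 3 bp with smaller local peaks such as those at 8 bp, 14 bp and 23 bp. The retinal 5′ junction peaks at 40 bp (145 reads), 48 bp (59 reads) and 3 bp (58 reads). Lengths of 40 bp and 48 bp are those of the left-out entries. The retinal 3′ junction rests on 28 reads.

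When the members were split at 20 bp, insertions of 3 to 19 bp held more reads in the liver. At the liver 5′ junction 32 members with 977 reads were 3 to 19 bp long and 30 members with 277 reads were 20 to 50 bp long, so the longer class held 22.1% of the reads (19.9% to 24.5%). At the liver 3′ junction the numbers were 181 members with 6523 reads and 68 members with 2542 reads, which put 28% (27.1% to 29%) in the longer class. The longer class was a larger part of the entries than of the reads at the 5′ junction (48.4% of the members) but not at the 3′ junction (27.3%). As shares of the depth, the classes made up 0.820% and 0.232% at the liver 5′ junction and 1.53% and 0.596% at the liver 3′ junction. The boundary did not fall on a frequent length in the liver, with no read of 19 bp and 1 of 20 bp at the 5′ junction and 70 and 112 reads at the 3′ junction. The split still depends on the limit. With a class limit of 10 bp the longer class held 45.9% of the reads at the liver 5′ junction. At the liver 3′ junction it held 50.4%, so the order of the classes turned there.

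The split ran the other way at the retinal 5′ junction, where 22 members with 260 reads were 20 to 50 bp long and 14 members with 65 reads were shorter, giving 80.0% (75.3% to 84.0%) in the longer class. This value rested on entries next to those left out. Of the 36 members, 19 lay within 3 nt and 5 bp of either left-out entry, a criterion chosen after the values were seen, and these held 257 of the 325 reads (79.1%). Without them 17 members with 68 reads remained, 0.00221% of the depth, and 3 of those reads were 20 bp or longer. The left-out entries, 46813 reads of 40 bp at the cleavage site and 35521 reads of 48 bp 1 nt before it, made up 1.52% and 1.15% of the depth, and the 257 reads beside them amounted to 0.312% of their sum. Whether these members are separate events or misread copies of the left-out insertions was not tested. At the retinal 3′ junction 11 members with 26 reads were 3 to 19 bp long and 2 members with 1 read each were longer, 7.14% of the reads with an interval from 1.98% to 22.6%.

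Members were most frequent at the cleavage site or 1 nt before it in the liver. At the liver 5′ junction 479 reads (38.2%, 35.5% to 40.9%) lay directly at the site and 403 reads (32.1%) 1 nt before it, and 934 reads (74.5%) lay within 2 nt on either side. The nucleotides on both sides of the latter position are the same base, and whether the placement of insertions by the aligner affected the division between these positions was not tested. At the liver 3′ junction 2887 reads (31.8%, 30.9% to 32.8%) lay at the site, 1063 reads (11.7%) 1 nt before it, and 4577 (50.5%) within 2 nt. With each entry counted once, 29% of the members of the 5′ junction and 14.9% of those of the 3′ junction lay at the site. Members away from the site were thus more frequent at the 3′ junction. Beyond 5 nt lay 40.8% of its reads (39.8% to 41.8%), against 18.8% (16.8% to 21.1%) at the 5′ junction. All 34 listed positions of the 3′ junction held a member, against 18 of 34 at the 5′ junction.

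Both liver libraries had more member reads before the site than after it. At the 5′ junction 523 reads (41.7%) lay before and 252 (20.1%) after the site, and the 3′ junction had 4428 (48.8%) before and 1750 (19.3%) after it. With the reads at each position limited to the insertion reads of the counts per position, a setting chosen after the values were seen, 251 of 7310 reads (3.43%) of the 3′ junction lay after the site and 4172 (57.1%) before it, so most of its listed reads after the site are uncertain in position. At the 5′ junction the reads before the site were on the genomic side and mostly next to it, while those after the site lay mostly 12 nt (106 reads), 14 nt (60 reads) and 16 nt (53 reads) into the donor. At the 3′ junction the side before the site is the donor, and reads were scattered over it, with 523 reads 8 nt and 486 reads 6 nt before the site.

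**Figure D4:**
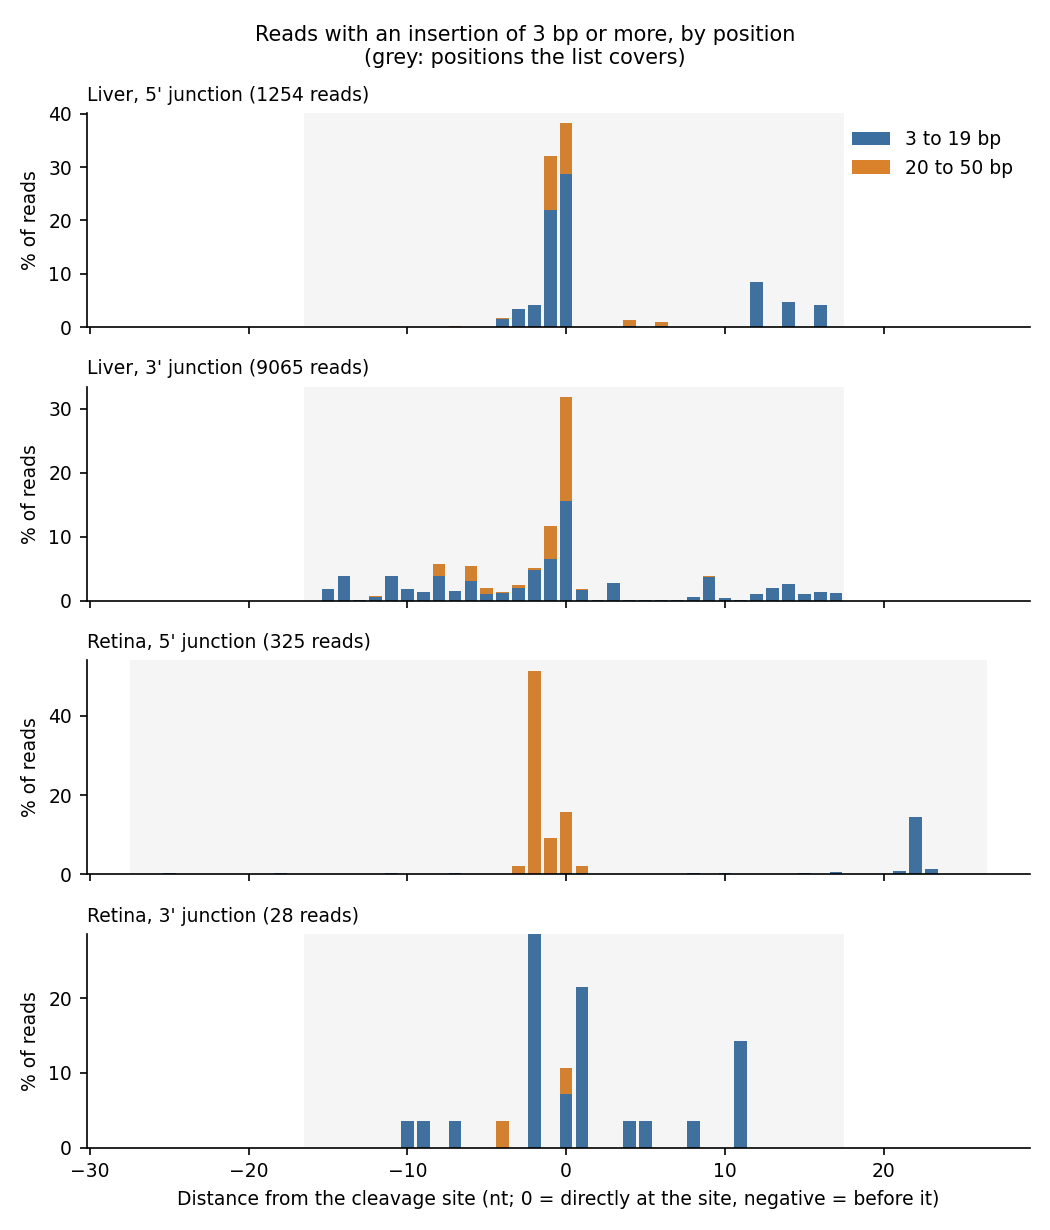
Share of the reads with an insertion of 3 bp or more (vertical axis, %) by distance from the cleavage site (horizontal axis, nt, negative before the site) in each library, with 3 to 19 bp in blue stacked under 20 to 50 bp in orange and the listed positions shaded. Reads gather at 0 and 1 nt before the site in the liver and, for the members beside the left-out entries, 2 nt before it at the retinal 5′ junction, and the liver 3′ junction has reads over its whole window.

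The classes also differed in position within each liver library. At the liver 5′ junction 88.8% of the reads with 20 to 50 bp lay within 2 nt of the site (84.6% to 92.0%), against 70.4% of those with 3 to 19 bp (67.5% to 73.2%). At the liver 3′ junction the shares were 78.2% (76.6% to 79.8%) and 39.7% (38.5% to 40.9%). Counted by entries, 24 of 30 longer and 14 of 32 shorter members lay within 2 nt at the 5′ junction, and 44 of 68 and 39 of 181 at the 3′ junction. As listed, long insertions were closer to the cleavage site in both liver libraries, by reads and by entries. Reads that share a molecule do not count separately, and a read with several insertions counts at each. Whether this raised the shorter class away from the site was not tested. Directly at the site the classes were nearer to each other by reads at the 5′ junction than at the 3′ junction. The 5′ junction had 42.6% (36.9% to 48.5%) of the longer and 36.9% (34% to 40.0%) of the shorter insertion reads there. The 3′ junction had 58.2% and 21.6%. This did not hold by entries, with 46.7% of the longer and 12.5% of the shorter members at the site of the 5′ junction. The shares by entries were 36.8% and 6.63% at the 3′ junction.

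At the retinal 5′ junction the member reads lay 2 nt before the site (167 reads, 51.4%) more often than at it (51 reads, 15.7%). This order rests on the members beside the left-out entries, which held 166 of the 167 reads. Without them 1 read lay 2 nt before the site and 2 at it, and with the left-out entries counted 56.7% of the reads lay at the site. All 260 reads of the longer class were within 5 nt. The shorter class had 2 of its 65 reads there. Of its 58 reads with 3 bp, 54 lay 21 to 23 nt after the site, at positions that only the wider list of this library covers. At the retinal 3′ junction 3 reads lay at the site and 17 of 28 within 2 nt (60.7%, 42.4% to 76.4%).

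**Figure D5:**
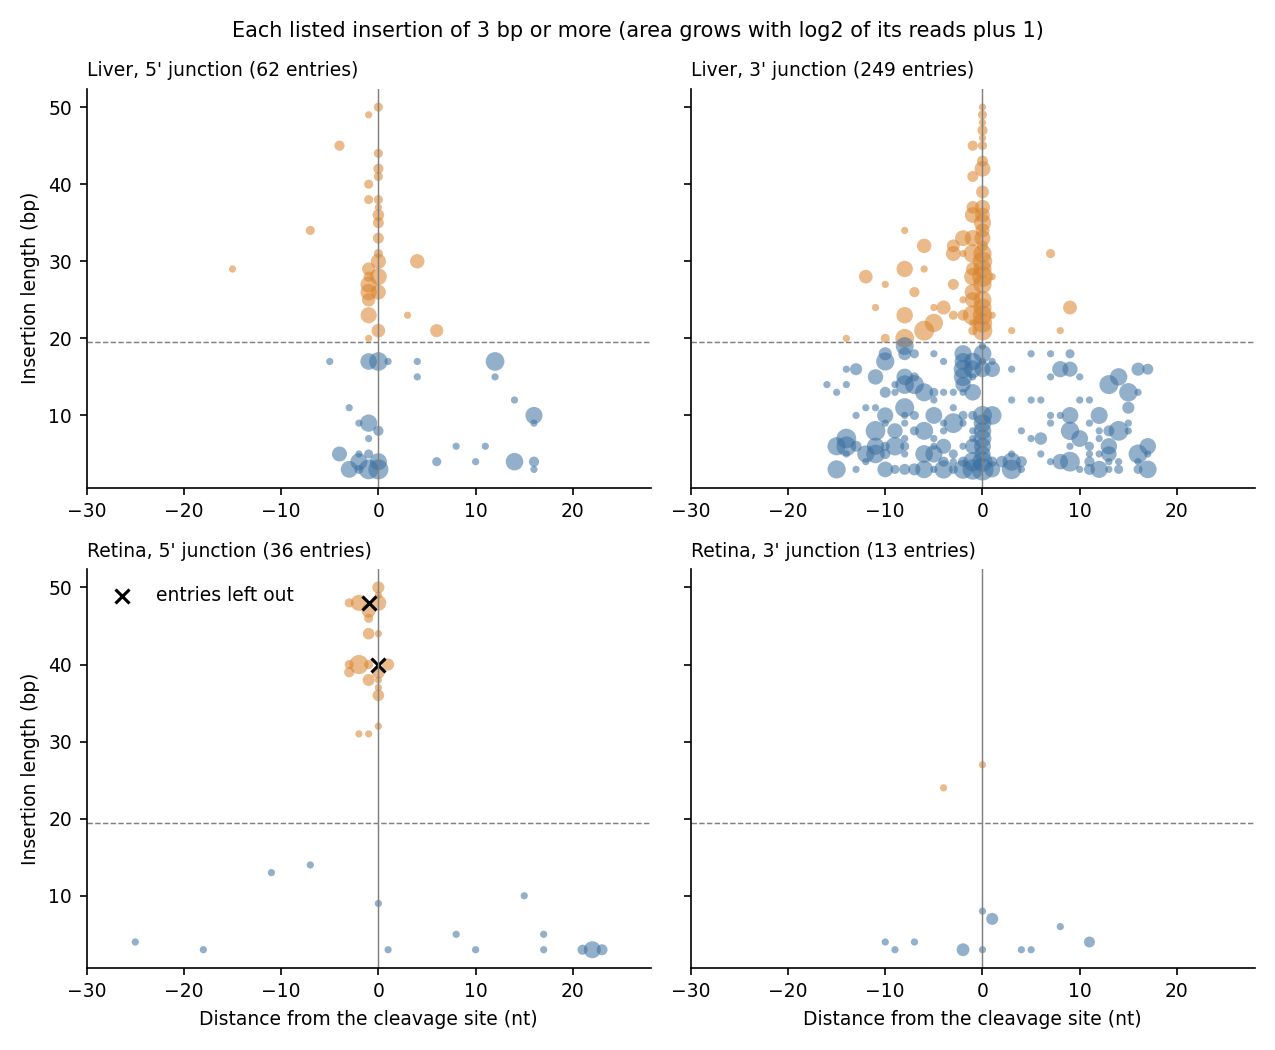
Every listed insertion of 3 bp or more by distance from the cleavage site (horizontal axis, nt) and length (vertical axis, bp) in the 4 libraries, with point area growing with the log2 of its reads plus 1, 3 to 19 bp in blue and 20 to 50 bp in orange. Longer insertions stand in a column at the site in the liver, and those of the retinal 5′ junction surround the 2 left-out entries (crosses).

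Placement of members away from the site is uncertain. The counts per position give a separate number of reads with an insertion, and over the listed positions the lists summed to 0.988, 0.998, 1.00 and 1.00 times these numbers in the liver 5′, liver 3′, retinal 5′ and retinal 3′ libraries. Position by position, however, the members alone outnumbered them at 16 of 34 positions of the liver 3′ junction, 12 of them after the site, with 1755 reads in excess (19.4% of its member reads). As an example, 344 member reads were listed 9 nt after the site, where the counts per position held 2 insertion reads. The excess was 3 reads at the liver 5′ junction, 2 at the retinal 5′ junction and 4 at the retinal 3′ junction, and no library had one at the cleavage site itself. Without these positions the shares within 2 nt became 91.8% and 74.7% for the longer and shorter class at the liver 5′ junction and 83.1% and 58.4% at the liver 3′ junction, so the longer class was still the nearer one. The excess was counted for members alone, although the counts per position include insertions of 1 or 2 bp. At the cleavage site of the liver 3′ junction, 2887 member reads stood against 46595 insertion reads in these counts. An excess could therefore hardly arise at the site, and its absence there does not show that placement at the site is certain. All listed insertions of the liver 5′ junction held 62 reads 6 nt after the site, against 10 in these counts. At 5 nt after it they held 38 against 179. The retinal 3′ list held 2619 reads 1 nt after the site, against 148. Placement is thus uncertain in these libraries too.

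Lengths that are a multiple of 3 make up 16 of the 48 lengths from 3 to 50 bp. They held 601 reads at the liver 5′ junction (47.9%, 45.2% to 50.7%), 3734 at the liver 3′ junction (41.2%, 40.2% to 42.2%), 134 at the retinal 5′ junction (41.2%, 36% to 46.7%) and 15 at the retinal 3′ junction (53.6%, 35.8% to 70.5%). The shortest member length is itself a multiple of 3 and was frequent. Without it, multiples of 3 held 20.1% of the reads at the liver 5′ junction (17.5% to 23%), 28% at the liver 3′ junction (27% to 29%) and 28.5% at the retinal 5′ junction (23.4% to 34.2%). Without the members beside the left-out entries, the retinal 5′ junction had 59 of 68 reads (86.8%) at multiples of 3. This share rests on the wider list of this library. Only 3 of its 58 reads with 3 bp lay within the 17 nt on each side that the other lists cover. By entries, 35.5% of the members at the liver 5′ junction and 38.2% at the liver 3′ junction had such a length.

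In the liver the leading entries of both junctions began with 3 bp at the site and 3 bp 1 nt before it. At the 5′ junction these had 211 reads (0.177% of the depth, 0.155% to 0.203%) and 181 reads (0.152%, 0.131% to 0.176%), and at the 3′ junction 698 reads (0.164%, 0.152% to 0.176%) and 271 reads (0.0636%, 0.0564% to 0.0716%). The intervals of the first of these entries overlapped between the junctions, while the second was higher at the 5′ junction. With the highest depth within 17 nt as denominator, the first entry had 0.173% (0.152% to 0.198%) at the 5′ junction and 0.146% (0.135% to 0.157%) at the 3′ junction. The next entries of 3 to 19 bp at the 5′ junction were 17 bp long 12 nt after the site (105 reads, 0.0881%), 17 bp at the site (100 reads, 0.0839%) and 4 bp 14 nt after the site (59 reads, 0.0495%). At the 3′ junction the next entries of this class were 4 bp at the site (220 reads, 0.0516%), 4 bp 9 nt after the site (178 reads, 0.0417%) and 9 bp 3 nt before the site (177 reads, 0.0415%), the last tied with 7 bp 14 nt before and 8 bp 14 nt after the site. The counts per position hold fewer insertion reads than the last 2 entries given with a share, with 2 reads 9 nt after the site and 151 reads 3 nt before it, so these shares are uncertain. The tied entry 14 nt after the site is also uncertain, since the counts per position hold 9 insertion reads there. They hold 748 at the position of the tied entry 14 nt before the site. Among the longer insertions, 28 bp at the site led in both libraries, with 42 reads at the 5′ junction (0.0352%, 0.0261% to 0.0476%) and 270 reads at the 3′ junction (0.0633%, 0.0562% to 0.0713%). It was followed at the 5′ junction by 26 bp (35 reads) and 27 bp (34 reads), both 1 nt before the site, and at the 3′ junction by 23 bp 1 nt before the site (193 reads) and 21 bp 6 nt before it (190 reads).

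Entries with the same distance and length were shared by both liver libraries in 32 cases, 51.6% of the members of the 5′ junction and 12.9% of those of the 3′ junction. The shared entries held 73.4% of the member reads of the 5′ junction and 28.2% of those of the 3′ junction. The lists held 62 and 249 members, so the same shared entries are a larger part of the shorter list. The difference between the shares of the junctions is therefore not a result about the insertions. The overlap was not computed over all listed insertions, so whether these shares are particular to the members was not tested. The libraries came from the same liver and from different sides of the donor, and the lists do not show whether the inserted bases were the same.

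In the retina the leading entries were supported by few reads. At the 5′ junction they were 40 bp 2 nt before the site (135 reads, 0.00438%), 48 bp 2 nt before the site (31 reads) and 48 bp at the site (26 reads) in the longer class, each with the length of a left-out entry. The leading shorter entry was 3 bp 22 nt after the site (47 reads, 0.00153%), followed by 3 bp at 23 nt (4 reads, where the counts per position hold 2) and 21 nt (3 reads) after the site, and the remaining shorter entries had 1 read each. At the 3′ junction only 3 bp 2 nt before the site (8 reads, 0.000569%), 7 bp 1 nt after the site (6 reads, 0.000427%) and 4 bp 11 nt after the site (4 reads, 0.000284%) had more than 1 read. The last of these lies where the counts per position hold 0 insertion reads. Without a control library, none of the 13 entries can be told apart from sequencing or alignment errors. The other libraries had no control either, so whether their entries, above all those with 1 read, include such errors was not tested.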

How the data were processed

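Counts of reads per position were deposited by the authors without normalization, after trimming with cutadapt and alignment with BWA to a reference of the edited locus. Their lists give, for insertions and for deletions, the number of reads at each position and length. All listed values were checked to be whole numbers of at least 1. A column of summed qualities and 2 coverage tables of the left-out entries were not used. The cleavage site was located as the centre of the longest inverted repeat in the most frequent bases within the listed positions. In the liver it was where the match to *Alb* in GRCm39 (GENCODE M39) ended. Listed positions covered 17 nt on each side, and 28 nt before and 26 nt after the site at the retinal 5′ junction. The locus of the retinal libraries is not reported here. A read with several insertions counts at each. Named insertions are the 5 entries of 3 to 19 bp and the 3 of 20 to 50 bp with the most reads per library, with ties going to the entry closer to the site and then the shorter one. The members and lists were chosen with earlier results of these data known. Alternatives covered minimum frequency, denominator, length limits, distance and weighting. Python 3.11.15, pandas 2.3.3, NumPy 2.4.6, SciPy 1.17.1 and matplotlib 3.10.9 were used, and the calculations were tested on simulated data.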

Additional observations from a re-analysis of the deposited data

How the results depend on the processing

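No paired analysis was possible because each junction and tissue had 1 library and no test was made. Of 72 recomputed shares, 31 stayed within the 95% interval of the reported value and 41 did not. Libraries are given in the order liver 5′, liver 3′, retinal 5′ and retinal 3′ junction unless named. The share of reads with an insertion of 3 bp or more was 0.329%, 0.164%, 0% and 0% with a minimum of 0.1% of the depth per entry. This turned the order of the liver junctions. The 0% of the retinal 5′ junction holds without the 2 left-out entries, which were above 0.1%. With a shortest length of 4 bp the share was 0.685%, 1.74%, 0.00867% and 0.00114%. Only positions within 5 nt gave 0.854%, 1.26% and 0.00851% in the first 3 libraries. The highest depth within 17 nt as denominator gave 1.89% at the liver 3′ junction, and a minimum of 3 reads per entry gave 0.00128% at the retinal 3′ junction. The share of 20 to 50 bp was 48.4% at the liver 5′ and 61.1% at the retinal 5′ junction with each entry counted once, 0% at the retinal 3′ junction with a minimum of 3 reads, and 45.9% and 50.4% in the liver with a class limit of 10 bp. The share at the cleavage site was 29%, 14.9% and 27.8% in the first 3 libraries with each entry counted once, 74.5%, 50.5%, 78.5% and 60.7% with up to 2 nt on either side, and 0% at the retinal 3′ junction with a minimum of 3 reads. Multiples of 3 made up 35.5% and 38.2% in the liver with each entry counted once.

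Other alternatives were chosen after the data were seen. With reads at each position limited to the insertion reads of the counts per position, the liver 3′ junction had a share of 1.71% and 39.5% of it at the site. Without entries of 3 bp, multiples of 3 made up 20.1%, 28%, 28.5% and 18.8%. At the retinal 5′ junction, counting the 2 left-out entries gave a share of 2.68%, above the 1.05% of the liver 5′ junction, of which 99.9% were 20 to 50 bp and 56.7% at the site. Without the members beside them the share was 0.00221%, of which 4.41% were 20 to 50 bp, 2.94% at the site and 86.8% multiples of 3. Of these 68 reads, 54 lay 21 to 23 nt after the site, beyond the reach of the other lists. These shifts follow from which entries each setting keeps or how it weights or scales them. Of the 31 named insertions, 30 stayed within their interval with the highest depth as denominator, and 3 bp at the site of the liver 3′ junction fell to 0.146%. Values of the retinal 3′ junction rest on 28 reads.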

Other observations

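Deletions of 3 bp or more in the same windows outnumbered the insertions of 3 bp or more in every library. There were 12.1 reads with such a deletion per member read at the liver 3′ junction, and 2602 at the retinal 3′ junction. At the retinal 5′ junction the ratio was 588 without the 2 left-out insertions and 2.31 with them. At the liver 5′ junction the lists gave 41.6, but its list of deletions summed to 2.0 times the deletion reads in the counts per position, and division by that excess gave 20.8. The lists of deletions of the other libraries summed to 1.00 times those counts.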
